A study of Bos taurus with 4 samples.

Results

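The transcripts described are those of OVGP1, the oviductal glycoprotein, and of 4 keratins of simple epithelia, KRT7, KRT8, KRT18 and KRT19, in granulosa cells of cattle. Every probe that the platform annotation gives to one of these 5 genes was taken, which gave 1 probe per gene and 5 of 43794 probes in all. The genes were chosen by their measured good over poor ratios, because these ratios reversed between arrays. The ratios are therefore given as a description, and no conclusion is drawn from any test of them. All 5 probes passed the filter on dim probes that 31917 probes passed, with signals above the control spots in 8 of 8 channels each. No sequence of the probes, transcripts or proteins was used.

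Granulosa cells, the somatic cells that line the ovarian follicle and nurse the oocyte, came from Holstein donors after ovarian stimulation and coasting, an interval without hormone before collection. Good-donor pools (pools 1 to 4) came from donors whose oocytes were rated of good developmental competence, and poor-donor pools (pools 9 to 12) from donors rated poor. Each of 4 two-colour arrays, all on 1 slide, held a good-donor pool against a poor-donor pool, with pool 1 against pool 9 on array 1, pool 2 against 10 on array 2, pool 3 against 11 on array 3 and pool 4 against 12 on array 4. Cy5 labelled the good-donor pools of arrays 1 and 2, and Cy3 those of arrays 3 and 4. The labels leave unsettled whether good donors were cows or heifers (the design text sets cows against heifers among 94 animals, the title names heifers), and they do not give the animals per pool. RNA of each pool was linearly amplified before labelling, and each pool was hybridised once. Every SD given with a mean below is a spread over arrays, in which differences between pools and technical noise cannot be told apart.

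Keratins are the intermediate filament proteins of epithelial cells. A filament is built from pairs of a type II keratin, such as KRT7 or KRT8, with a type I keratin, such as KRT18 or KRT19. KRT8 with KRT18 is the basic pair of simple, one-layered epithelia, and KRT7 and KRT19 are added in ducts and in the lining of the reproductive tract. Granulosa cells of cattle can hold KRT8 and KRT18 too. OVGP1 is a chitinase-like glycoprotein that secretory cells of the oviduct release and that binds the zona pellucida around the egg, and it is generally used as a marker of oviduct epithelium. In the RefSeq annotation of ARS-UCD2.0, KRT8 and KRT18 are direct neighbours among protein-coding genes.

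All 5 genes had a higher signal in the good-donor pool on array 1 and a lower one on arrays 2, 3 and 4. The 5 genes did not share the size of these differences. OVGP1 and KRT18 differed most on arrays 1 and 3, while KRT7 and KRT19 differed most on array 4, and KRT8 was 1.99-fold, 5.15-fold and 4.20-fold lower in the good-donor pool on arrays 2, 3 and 4. Among the 31917 probes tested, 7.53% had this order of signs, and 0.633% were at least 2-fold higher on one array and at least 2-fold lower on another, as OVGP1, KRT8 and KRT18 were. Since the genes were picked for this reversal, nothing is read from these shares. The arrays also differed over all tested probes. On arrays 1 to 4, 399, 112, 71 and 158 probes were at least 2-fold higher in the good-donor pool, and 81, 194, 216 and 723 at least 2-fold lower. The SD of the log2 ratios over tested probes was 0.32, 0.28, 0.27 and 0.42.

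**Figure D1:**
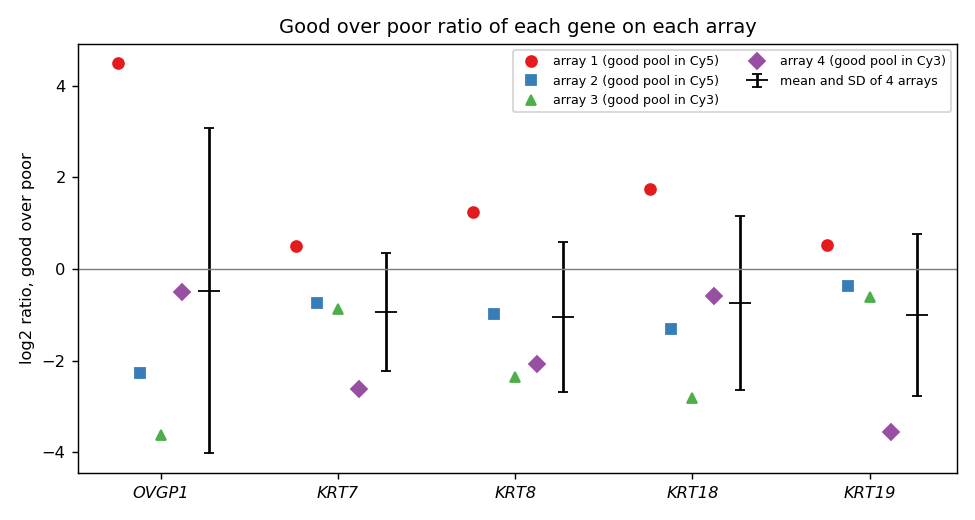
Log2 ratio of good over poor (vertical axis) for each gene (horizontal axis), with a symbol for each array and a black bar for the mean and SD of the 4 arrays. Array 1 lies above 0 for every gene and arrays 2 to 4 lie below 0, and the SD exceeds the mean in each gene.

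OVGP1 had the widest ratios of the 5 genes. Levels below are normalized log2 intensities, which are compared between pools for one probe and never between probes. OVGP1 was at 10.94, 10.02, 6.65 and 9.53 in good-donor pools 1 to 4, against 6.45, 12.30, 10.28 and 10.03 in poor-donor pools 9 to 12. Pool 3 of the good donors and pool 9 of the poor donors stood low, the other 6 pools lay between 9.53 and 12.30, and the groups overlapped. In pool 3 the foreground was 1.36-fold and in pool 9 it was 1.41-fold the 95th percentile of the control spots (dark and negative ones), so in both pools OVGP1 was barely above background. The log2 ratio was 4.49, -2.28, -3.62 and -0.50 on arrays 1 to 4, a 22.4-fold higher signal in the good-donor pool on array 1 and a 12.3-fold higher signal in the poor-donor pool on array 3. Of all tested probes, OVGP1 had the 3rd highest ratio on array 1, the 13th lowest on array 2 and the 6th lowest on array 3, while on array 4 it was the 2271st lowest. The sizes on arrays 1 and 3 rest on the dim channel. With a normexp offset of 0 in place of 50 they were 5.27 and -4.62.

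The mean OVGP1 ratio was -0.48 ± 3.55 (SD, n = 4). Leaving out array 2 gave a mean of 0.12, leaving out array 3 gave 0.57 and leaving out array 1 gave -2.13, so its direction depended on single arrays.

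KRT18, the type I partner of KRT8, followed the order of OVGP1 with smaller steps. Its level was 9.64, 9.18, 7.997 and 8.78 in good-donor pools 1 to 4, against 7.90, 10.49, 10.82 and 9.36 in poor-donor pools 9 to 12. Pools 3 and 9 were again the lowest and pools 10 and 11 the highest, and the groups overlapped. The log2 ratio was 1.74, -1.31, -2.82 and -0.58 on arrays 1 to 4, with a mean of -0.74 ± 1.90 (SD, n = 4). Its mean was -1.57 without array 1 and -0.05 without array 3.

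KRT8, the type II keratin of this pair, had a signal of 7.29% to 25.2% of the brightest probe of the channel in good-donor pools and 17.7% to 46.6% in poor-donor pools. Its level was 13.45, 12.69, 11.33 and 12.00 in good-donor pools 1 to 4, against 12.20, 13.69, 13.70 and 14.07 in poor-donor pools 9 to 12. Poor-donor pools 10, 11 and 12 were above every good-donor pool, and pool 9 was below pools 1 and 2. Without normalization between arrays, poor-donor pool 11 (13.50) was below good-donor pool 1 (13.60). The log2 ratio was 1.25, -0.99, -2.36 and -2.07 on arrays 1 to 4, with a mean of -1.04 ± 1.64 (SD, n = 4). On arrays 2 to 4 alone the mean was -1.81 ± 0.72 (SD, 3 arrays). Without array 3 the mean of the other arrays was -0.60, and without array 4 it was -0.70.

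KRT19, a type I keratin that lacks the tail domain of other keratins, differed most on array 4. Its level was 13.67, 13.75, 12.19 and 11.52 in good-donor pools 1 to 4, against 13.14, 14.11, 12.80 and 15.08 in poor-donor pools 9 to 12. Pool 12 was the highest of all 8 and its partner on the array, pool 4, the lowest. The log2 ratio was 0.53, -0.36, -0.61 and -3.56 on arrays 1 to 4, so the poor-donor pool was 11.8-fold higher on array 4 while on the other 3 arrays the groups differed by at most 1.53-fold. The mean was -1.001 ± 1.77 (SD, n = 4), and -0.15 without array 4. The KRT19 signal was at 9.31% of the brightest probe of its channel in good-donor pool 4, against 66.4% in poor-donor pool 12.

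KRT7, a type II keratin of ducts and of the reproductive tract lining, also differed most on array 4. Its level was 8.56, 8.70, 7.01 and 7.89 in good-donor pools 1 to 4, against 8.06, 9.45, 7.88 and 10.52 in poor-donor pools 9 to 12. The highest levels were in poor-donor pools 12 and 10 and the lowest in good-donor pool 3, with the groups overlapping in between. In pool 3 the foreground was only 1.76-fold the 95th percentile of the control spots. The log2 ratio was 0.50, -0.75, -0.87 and -2.63 on arrays 1 to 4, with a mean of -0.94 ± 1.28 (SD, n = 4). Without array 4 this mean was -0.37, and without array 1 it was -1.41.

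**Figure D2:**
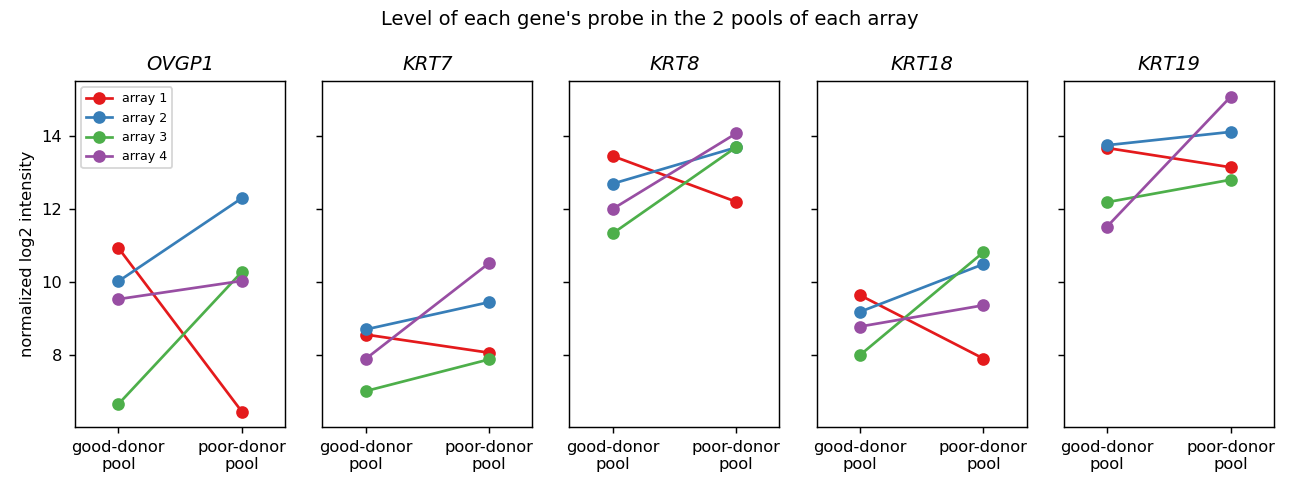
Normalized log2 intensity (vertical axis) of each gene's probe in the good-donor pool (left) and the poor-donor pool (right) of each array, joined by a line. Array 1 falls from left to right in every panel and arrays 2 to 4 climb. The steepest lines are those of arrays 1 and 3 for OVGP1 and that of array 4 for KRT19. Heights in different panels come from different probes and are not compared.

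In all 5 genes the levels of the 4 good-donor pools overlapped those of the 4 poor-donor pools. The reversal for which they were chosen makes this certain, so nothing is read from it. Of all tested probes, 1.89% had the groups apart in either direction. Across all tested probes, limma's test of the mean good over poor ratio called 0 (0%) at an adjusted p under 0.05. Before adjustment, 1132 probes had a p under 0.05, with the good-donor pools above the poor-donor pools for 694 (2.17%) and below them for 438 (1.37%). No p is given for the 5 genes, which were chosen on this comparison.

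The ratios were also read by dye orientation. Array 1 was positive and array 2 negative for all 5 genes, and both carried the good-donor pool in Cy5. The mean of arrays 1 and 2 was 1.10 for OVGP1, 0.22 for KRT18, 0.13 for KRT8, 0.08 for KRT19 and -0.13 for KRT7. With the good-donor pool in Cy3 (arrays 3 and 4) the means lay between -2.22 for KRT8 and -1.70 for KRT18. For each gene this mean was lower than that of arrays 1 and 2. The orientations held different pools, so effects of dye and of pool cannot be told apart. The signs were the same in 5 of 5 genes under 3 other background corrections, with median foreground, with median centring and in the authors' deposited ratios, which run as poor over good and were turned. Without any normalization within arrays 1 of 5 genes, KRT8, still had this pattern, and the ratio changed sign on array 4 for OVGP1 (0.30) and KRT18 (0.20) and on array 1 for KRT7 (-0.31) and KRT19 (-0.12).

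Pearson's r of the good over poor ratios across the 31917 tested probes was -0.34 for arrays 1 and 3, 0.29 for arrays 3 and 4, and -0.07 to 0.06 for the other array pairs. Probes are not independent replicates. The dyes of the labels settle the direction of each array, and the deposited ratios ran against the ratio as turned here on all 4 arrays (r of -0.98, -0.97, -0.96 and -0.98).

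**Figure D3:**
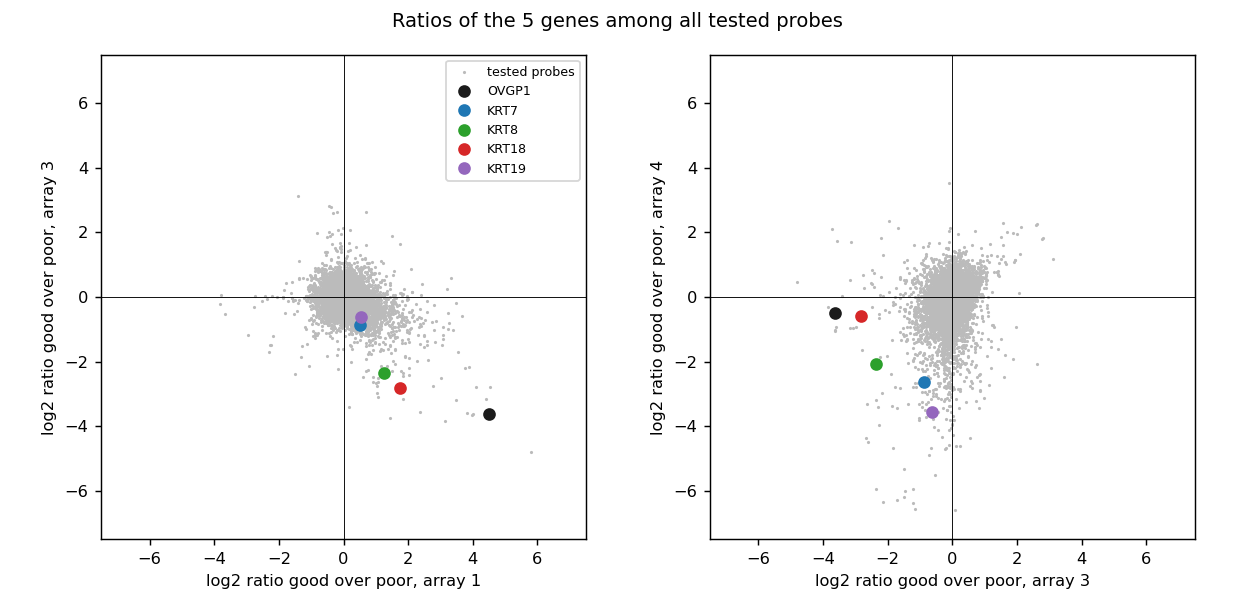
Log2 good over poor ratios of array 1 against array 3 (left) and of array 3 against array 4 (right) for all tested probes (grey) and the 5 genes (coloured). On the left OVGP1, KRT18 and KRT8 lie far from the origin in the lower right part. On the right KRT7 and KRT19 reach low on the array 4 axis, while OVGP1 and KRT18 reach far left on the array 3 axis.

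Within the set, levels followed each other most closely in a pair of keratins and in OVGP1 with KRT18. The shared order of signs that chose the genes sets part of each correlation. Over the 8 pools, which share arrays and dyes in pairs, Pearson's r was 0.89 between KRT7 and KRT19 and 0.87 between OVGP1 and KRT18. It was 0.82 between the filament partners KRT8 and KRT18, 0.78 between KRT7 and KRT8 and 0.77 between OVGP1 and KRT8. The lowest values were 0.36 between KRT18 and KRT19, 0.40 between KRT7 and KRT18 and 0.45 between OVGP1 and KRT19. KRT8 thus had r of 0.76 or more with each of the other 4 genes. The log2 ratio of KRT8 minus that of its partner KRT18 was -0.48, 0.31, 0.46 and -1.49 on arrays 1 to 4, widest on array 4. These are descriptions over few pools, and each r can rest on 1 or 2 of them.

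The genes whose levels were most like each member differed between members. Among 656 other genes with a level SD of at least 0.5 over the 8 pools, those nearest to OVGP1 were RARRES1 (r = 0.97), S100B (0.95), a calcium-binding protein, and CLU (0.95), the secreted chaperone clusterin. On arrays 1 to 4 RARRES1 gave 5.81, -1.39, -4.79 and 0.45 as log2 ratios, the widest range of any tested probe, and OVGP1 came next. Nearest to KRT18 were GATM (0.97), which makes the creatine precursor guanidinoacetate, GADD45A (0.95), a growth arrest and DNA damage gene, and LYSMD2 (0.93). Among the 656 genes, KRT18 ranked 22nd for OVGP1, and OVGP1 ranked 13th for KRT18. For KRT8, KRT18 ranked 52nd, and KRT8 ranked 31st for KRT18. For KRT7, KRT19 ranked 98th, and KRT7 ranked 28th for KRT19.

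Nearest to KRT7 were FXYD3 (0.99), a regulator of the sodium pump, MUC1 (0.99), the epithelial surface mucin, and STAP2 (0.99), a signalling adaptor. On arrays 1 to 4 the log2 ratios of FXYD3 were 0.42, -1.08, -0.72 and -2.91, and MUC1 had 0.997, -0.92, -1.05 and -2.65, so both were most negative on array 4, as KRT7 was. Nearest to KRT19 were ST6GALNAC2 (0.97), a sialyltransferase, GDPD3 (0.95) and SOCS2 (0.94), a cytokine signalling suppressor. For KRT8 they were LOC515823 (0.98), LMO7 (0.94), a protein of epithelial cell contacts, and SWAP70 (0.93). Each r is over 8 pools and is the highest of many, so its size is no measure of certainty.

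Other genes of epithelium, oviduct and the keratin network were read from lists, with each gene represented by its brightest tested probe. In every list 0 members passed limma's adjusted threshold in either direction. Over all 12598 tested genes 48.4% had a higher and 51.6% a lower mean in good-donor pools, and 9.56% had the order of signs of the 5 genes. The median of their mean log2 ratios was -0.003, and the medians on arrays 1 to 4 were 0.02, -0.01, -0.01 and -0.01. The list of 5 other keratins (KRT20, KRT23, KRT80, KRT86 and KRT222) had 2 tested members, KRT23 and KRT86, both dim, with mean log2 ratios of -0.10 ± 0.23 and -0.01 ± 0.06 (SD, n = 4).

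Keratins of stratified epithelia had a different profile over the arrays. Of 18 listed, 12 were tested, 10 with a lower and 2 with a higher mean in good-donor pools, and the median log2 ratio was -0.84. Without array 4 that median was -0.08. The medians on arrays 1 to 4 were -0.17, -0.02, -0.02 and -2.40. KRT4, a keratin of mucosal linings, had log2 ratios of -1.08, -3.34, -2.14 and -6.34, and KRT78 had -0.63, -1.31, -0.73 and -4.89. The probe annotated KRT2 had -0.16, 1.02, -0.01 and -1.33. On array 1, where the 4 simple keratins were higher in the good-donor pool, KRT4, KRT78 and KRT2 were not, and 1 of 12 stratified keratins had the order of signs of the 5 genes. The summed linear level of the list was 4608 to 8806 in good-donor pools, against 5814 to 42071 in poor-donor pools.

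Junction and surface genes of simple epithelia had 18 of 24 members tested, 14 with a lower and 4 with a higher mean, and a median of -0.09. The medians on arrays 1 to 4 were -0.06, -0.24, -0.14 and -0.29, and 6 of 18 had the order of signs of the 5 genes, against 9.56% of all tested genes. The median was -0.06 without array 4. EPCAM, an epithelial adhesion molecule, had log2 ratios of -0.20, -0.70, -1.78 and -2.79, but its other probe gave a mean of 0.02. SPINT2, a serine protease inhibitor, had 0.52, -0.30, -0.32 and -0.91, but its other probe had -0.12, -0.29, 0.09 and 0.10. TJP1, a tight junction scaffold that many cell types express, had 0.27, -0.06, -0.12 and -0.03. CDH1, the adhesion protein E-cadherin, was above the control spots in 3 of 8 channels and was not tested. The summed level was 4968 to 7904 in good-donor pools, against 5869 to 14190 in poor-donor pools.

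Epithelial transcription and splicing factors had 16 of 18 members tested, 15 with a lower and 1 with a higher mean, and a median of -0.12. Leaving out array 1, 2 or 4 gave medians of -0.31, -0.25 and -0.04. The medians on arrays 1 to 4 were 0.17, -0.18, -0.11 and -0.78. Of the 16 tested, 5 had the order of signs of the 5 genes, against 9.56% of all tested genes. FOXA2, a forkhead factor of glands and gut, had log2 ratios of 1.59, -0.77, -0.92 and -1.81, ESRP1, an epithelial splicing regulator, 0.36, -0.74, -0.21 and -1.52, and KLF4, a zinc finger factor of epithelial differentiation, -0.02, -0.88, -0.17 and -3.49. With these probes FOXA2 and ESRP1 had the order of signs of the keratins. Another tested ESRP1 probe did not, with -0.02, -0.06, -0.03 and -0.03.

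Genes of oviduct secretory cells, the cells that release OVGP1, had 8 of 11 members tested, 5 with a lower and 3 with a higher mean, and a median of -0.33. The medians on arrays 1 to 4 were 0.37, -0.20, -0.29 and -1.22, and 4 of 8 had the order of signs of the 5 genes, against 9.56% of all tested genes. The list median was -0.09 without array 4 and -0.57 without array 1. WFDC2, a secreted protease inhibitor-like protein, had log2 ratios of -0.68, -1.71, -0.71 and -2.91, and EMX2, a homeobox factor of the reproductive tract, had 1.28, -0.22, -0.48 and -0.28. MUC1 is given above. PAX8, which marks these cells, was dim with a mean of 0.05 ± 0.22 (SD, n = 4), SOX17 was above the control spots in 3 of 8 channels and ESR1 in 0 of 8. The summed level was 789 to 1824 in good-donor pools, against 1048 to 3836 in poor-donor pools. The part of such cells in the OVGP1 signal was not tested.

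Ciliated cells, the other main cell type of oviduct epithelium, had 14 of 20 listed genes tested, 13 with a higher and 1 with a lower mean, and a median of 0.17. Without array 1 it was 0.04 and without array 3 it was 0.31. The medians on arrays 1 to 4 were 0.68, -0.02, -0.17 and 0.29. DNAH9, a ciliary dynein heavy chain, had log2 ratios of 3.55, 0.12, -1.69 and 2.13, and HYDIN, a protein of the ciliary central pair, had 0.78, 0.52, -0.21 and 0.16. CCDC40, needed for ciliary beating, had -0.20, -0.40, 0.22 and 0.32. In 0 of 14 was the order of signs that of the 5 genes, since on array 4 each was above 0. The summed level was 1544 to 3197 in good-donor pools, against 1490 to 2444 in poor-donor pools.

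Mesothelium and ovarian surface genes had 7 of 11 members tested, 5 with a higher and 2 with a lower mean, and a median of 0.09. UPK1B, a uroplakin, had log2 ratios of 0.15, 0.48, 0.36 and -0.37, CALB2, the calcium-binding protein calretinin, -0.0036, 1.11, 0.53 and 0.34, and UPK3B, another uroplakin, 1.02, -0.46, -0.70 and 0.52. Their summed level was 4843 to 7686 in good-donor pools, against 4196 to 5486 in poor-donor pools.

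Genes that bind or link keratin filaments had 12 of 15 members tested, 5 with a higher and 7 with a lower mean, and a median of -0.03. PPL, the cornified envelope and desmosome linker periplakin, had log2 ratios of 1.497, -0.70, -1.16 and -2.66, the order of signs of the keratins. DST, a cytolinker of hemidesmosomes and other structures, had -0.10, 0.14, -0.40 and -0.03, and TCHP, a keratin-binding protein, had 0.25, 0.08, -0.14 and 0.20. PPL was the 1 of 12 with that order.

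Intermediate filament genes other than keratins had 12 of 16 members tested, 4 with a higher and 8 with a lower mean, and a median of -0.06. VIM, the filament protein vimentin of granulosa and mesenchymal cells, had log2 ratios of 0.35, 1.72, -0.58 and -0.83, LMNB1, a nuclear lamin, 0.34, 0.06, -0.09 and -0.65, and SYNC, syncoilin of muscle, 1.10, -0.09, -0.55 and 0.41. On array 2 the VIM ratio was positive where all 4 keratin ratios were negative.

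Of the chitinase-like relatives of OVGP1, 4 of 6 were tested, with a median of -0.02. CHI3L1, a secreted chitinase-like protein, had log2 ratios of 1.11, -0.87, -1.05 and -1.30, again with the order of signs of OVGP1, while CHID1 had -0.13, 0.37, -0.22 and 0.12 and CHIA had -0.16, 0.04, 0.02 and -0.08. ZP2 and ZP3, zona pellucida genes of the oocyte, were dim, with means of -0.03 ± 0.08 and 0.00 ± 0.07 (SD, n = 4). Another tested ZP3 probe had a mean of -0.31, with log2 ratios of -0.21, -0.44, -0.02 and -0.54.

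**Figure D4:**
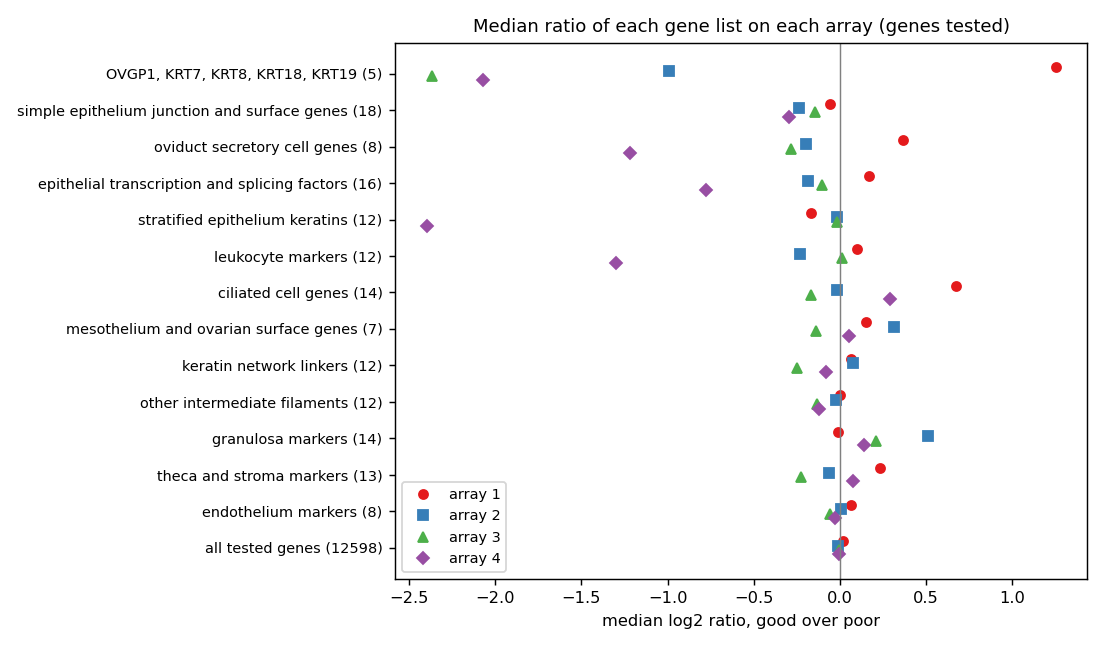
Median log2 ratio of good over poor (horizontal axis) of each gene list (rows, with the genes tested in brackets) on each array (symbols). The 5 genes spread from -2.36 to 1.25, the oviduct secretory, stratified keratin and leukocyte lists lie far left on array 4 alone, and all tested genes lie near 0.

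Granulosa markers were present throughout, with 14 of 14 tested and 13 above the control spots in 8 of 8 channels. With the brightest probe of each gene, all 14 had a higher mean in good-donor pools (48.4% over all tested genes). Among their other tested probes, the means were -0.10 and 0.37 for NR5A2 and 0.14 and 0.07 for CYP19A1. The median was 0.17, or 0.28 without array 1, with a summed level of 117660 to 189120 in good-donor pools, against 86125 to 176263 in poor-donor pools. INHA, INHBA and SERPINE2, genes of an inhibin subunit, a subunit of inhibin and activin, and a protease inhibitor, were the brightest. Their means of 0.48 ± 1.20, 0.17 ± 1.46 and 0.06 ± 0.98 (SD, n = 4) were smaller than the SDs. On arrays 1 to 4 INHA gave log2 ratios of 1.25, 1.76, -0.60 and -0.48, INHBA had 0.78, 1.92, -1.33 and -0.68, and SERPINE2 had 0.58, 1.16, -0.91 and -0.60. The signs of these 3 markers were those of the 5 genes on arrays 1, 3 and 4 and the opposite on array 2. The list as a whole did not share them, with medians of -0.01, 0.51, 0.21 and 0.14 on arrays 1 to 4. Of the 14 markers, 7 had a positive ratio on array 1, while 4 had a negative one on array 3 and 5 on array 4. A smaller number of granulosa cells in a pool and less of a transcript per cell cannot be told apart in these bulk RNA samples.

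Leukocyte markers had 12 of 17 members tested, all 12 with a lower mean (51.6% over all tested genes), and a median of -0.35. Leaving out array 2, 3 or 4 gave medians of -0.20, -0.71 and -0.03. The medians on arrays 1 to 4 were 0.10, -0.23, 0.01 and -1.30, with a summed level of 1305 to 2365 in good-donor pools, against 1860 to 6941 in poor-donor pools. S100A9, a calcium-binding protein of neutrophils, had log2 ratios of -0.34, -1.70, -0.67 and -4.67, LYZ, lysozyme, 0.69, -1.18, 1.61 and -2.46, and CD68 0.41, -0.13, 0.19 and -0.76. ITGAM and CD79A were above the control spots in 0 of 8 channels. On array 4 these markers and the stratified keratins moved with KRT7, KRT8 and KRT19, and their part in those ratios was not tested.

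Theca and stroma markers had 13 of 13 members tested, a median of -0.01 and medians of 0.23, -0.07, -0.23 and 0.08 on arrays 1 to 4. COL3A1, a fibrillar collagen, had log2 ratios of 0.57, -0.42, -1.11 and -0.72 and LUM, a matrix proteoglycan, 1.53, -2.22, -0.76 and 0.11, while ACTA2, smooth muscle actin, had 0.23, 0.39, -0.14 and -0.48. The summed level was 7162 to 11527 in good-donor pools, against 7223 to 12688 in poor-donor pools. On arrays 1 to 3 these medians had the sign of the ratios of all 5 genes, and on array 4 the opposite sign. Endothelium markers had 8 of 10 members tested, medians between -0.06 and 0.06 on the 4 arrays, and a summed level of 656 to 805 in good-donor pools, against 650 to 755 in poor-donor pools. The endothelial adhesion gene PECAM1 was above the control spots in 0 of 8 channels, and KDR, CLDN5 and ERG had means of 0.28 ± 0.80, -0.0044 ± 0.25 and -0.08 ± 0.04 (SD, n = 4).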

How the data were processed

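Two-colour arrays of cattle probes were read from the deposited scanner files, which per the file headers give each spot's linear intensity, as means and medians of foreground and local background, for Cy5 (635 nm) and Cy3 (532 nm), without flags. The authors also deposited normalized log2 ratios, used as an alternative, whose method is not given in the sources used here. Their medians were 0.02, 0.00, -0.02 and -0.03 on arrays 1 to 4, and set against the scanner ratios they run as poor over good with slopes of -1.22 to -1.12.

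Mean foreground was corrected with median local background (normexp, offset 50), normalized by loess with control spots at weight 0 and by Aquantile between arrays (limma 3.58.1, R 4.3.3). Probes above the 95th percentile of 757 dark and negative control spots in at least 4 of 8 channels were tested. Median foreground was 49.9 to 54.3 in Cy5 and 90.5 to 132 in Cy3, and the number of arrays limits the precision. Ratios were turned to good over poor by the labelled dyes and their mean tested against 0 with lmFit and eBayes, two-sided, with Benjamini-Hochberg adjustment. The test was checked on simulated data. The p-values set the mean ratio against the spread between these arrays.

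The platform annotation, which is old, named 1 gene for 21790 probes, more than 1 for 0 probes and no gene for 22004, and symbols were updated through RefSeq (ARS-UCD2.0). Named genes were the members, the 3 genes most correlated with each, and the 3 brightest of each of 15 lists. Others are given where a marker was absent or dim. TIMP1, GFPT2, PTX3 and LTF, under other observations, were singled out after their values were seen. The members and lists were chosen with earlier results of these data known. All 4 arrays lay on 1 slide, so no slide block was fitted.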

Additional observations from a re-analysis of the deposited data

Results flagged for a closer look

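In 28 sets of 4 values, the gap between the highest or lowest value and its nearest neighbour was set against the whole range (Dixon's test at its 95% critical value). The gap passed in 1 set, against 1.4 by chance. It was the median log2 ratio of the stratified epithelium keratins on array 4, at -2.40, against -0.17 to -0.02 on the other arrays, with a gap of 0.937 of the range. No set of ratios, good-donor levels or poor-donor levels of the 5 genes passed. These genes were chosen on their ratios, so nothing is read from this. The widest gaps among them were 0.795 of the range for KRT8 in poor-donor pools and 0.72 for the KRT19 ratio. The KRT19 gap lay at array 4.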

How the results depend on the processing

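The mean ratio of each of the 5 genes moved by less than its SD in all 55 recalculations, but these SDs are wide, and leaving out single arrays turned the OVGP1 mean and moved those of the 4 keratins by over 1.5 times, as given above. Without normalization within arrays, 33 probes passed limma's adjusted threshold and 1 of the 5 genes was higher on array 1 and lower on the others; the cause was not tested. In the other 15 recalculations of the test 0 probes passed. Its count at an unadjusted p under 0.05 was 1132, against 243 without normalization, 642 with median centring, 1839 with a dye term and 1705 without array 1, and 864 to 1403 in the rest. All 5 genes were above the 99th percentile of the control spots in 8 of 8 channels. The 65 recalculated list medians moved by less than their spread over arrays, but that spread is wide, and single arrays changed many of them by over 1.5 times. Without array 4 the median was -0.08 for stratified keratins, -0.03 for leukocyte markers, -0.09 for oviduct secretory genes and -0.04 for epithelial factors, as given above. Leaving out arrays for these medians was chosen after seeing the data. Pool levels without a step between arrays, or with Rquantile, were chosen after seeing the data. Both left the highest pool of OVGP1 at pool 10. The lowest was pool 9 with Rquantile, as in the main levels, but pool 3 without the step. No paired analysis was possible because, beyond the pairing of pools within each array that the ratio already uses, the 2 dye orientations share no replicate number. With 1 hybridisation per pool, the spread between animals cannot be read from these data.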

Other observations

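Other genes reversed between arrays too, over ranges that were wide but, apart from RARRES1, narrower than that of OVGP1. Of 202 tested probes at least 2-fold higher in the good-donor pool on one array and at least 2-fold lower on another, 96 were higher on array 1 and lower on arrays 2 to 4. Singled out after their values were seen, TIMP1, an inhibitor of matrix metalloproteinases, gave 3.97, -2.27, -3.64 and -1.01 as log2 ratios of arrays 1 to 4 with one probe and 3.81, -2.05, -3.60 and -0.94 with the other. GFPT2, an enzyme of hexosamine synthesis, had 4.54, -1.64, -2.79 and -1.65, and PTX3, a pentraxin of the cumulus matrix, had 3.88, -1.29, -2.18 and -2.96. LTF, the iron-binding protein lactoferrin, had 1.49, -1.48, -2.28 and -3.94, with the most negative value on array 4, as in KRT7 and KRT19.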
